A study of Homo sapiens with 20 samples.

Results

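The guides described here are the 9107 guides of the HfCas13d library whose IDs begin with UID_ and carry a number above 30000. They are part of 39075 guides with such IDs in a table of 40070 guides, and of 81543 guides over the 4 tables of the series. The other 29968 UID_ guides have numbers up to 30000, and 995 guides are marked NT_, the mark of non-targeting controls. The numbers run from 30001 to 39120, and 13 of these 9120 numbers have no row in the table and were not analysed here. The border at 30000 was drawn after the change from day 0 to day 14 had been seen, because losses were more frequent above it. Everything below about that change is therefore a description of these guides and carries no test of the border.

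The screen used HAP1, a near-haploid human line from a chronic myelogenous leukaemia, engineered to express nuclear high-fidelity Cas13d (HfCas13d) when doxycycline is given. Cells received the lentiviral guide library at low multiplicity in separate infections and were selected with puromycin. Doxycycline at 1 μg/ml then induced the nuclease while puromycin and blasticidin kept up the selection. The 3 day 0 libraries, labelled as input, were compared with 3 libraries of day 14 of induction; all 6 carry the nuclease and the guide library. Whether the engineered line is a single clone is not given in the sources used here.

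Cas13d is a bacterial nuclease that a guide RNA directs to a matching RNA, which it then cuts, so that a transcript is lowered without a change to the genome. After activation, wild-type Cas13d can also cut bystander RNA, and high-fidelity forms were engineered to cut less of it. In a pooled growth screen the integrated guide cassette serves as a tag of the cell that carries it. A guide against a transcript that the cells need for growth becomes rarer in the genomic DNA of the population. One against a transcript whose loss favours growth becomes more common. The table gives no guide sequence, no target gene and no genome position, so guides are named by their IDs and no target is assigned to any of them.

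Recovered reads ranged from 7196215 to 9122431 in the day 0 libraries and from 6987973 to 14338227 in the day 14 libraries. The median member had 178, 191 and 225 reads in day 0 replicates 1, 2 and 3, and 169, 200 and 347 reads in day 14 replicates 1, 2 and 3. The fewest reads of any member were 42 at day 0 and 4 at day 14. Values are given below as signal scaled so that the NT_ guides are level across libraries, and changes as log2 of day 14 over day 0.

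Most members kept their abundance over 14 days, and a minority was lost, some of them almost completely. The median log2 fold change of the 9107 members was -0.02, with the middle 50% of them between -0.14 and 0.08. The lowest 5% lay below -0.39 and the lowest 1% below -1.41. Guides numbered up to 30000 had a median of -0.01 and a lowest 1% below -0.42, and NT_ guides a median of 0.00 and a lowest 1% below -0.38. The highest 1% began at like values, above 0.37 for members, above 0.37 up to 30000 and above 0.36 for NT_ guides. The single highest guides of these groups were at 0.84, 1.11 and 0.62. By these percentiles the values thus differed on the side of loss, which is the side that set the border.

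Of the members, 219 (2.40%) were lower at day 14 at an adjusted p under 0.05 by limma over the whole table, where 0.711% of all guides were called lower. They make up 76.8% of the 285 guides called lower in the table, while members are 22.7% of its guides. Because the border was chosen on this contrast, nothing is read from the difference between these shares. The called guides had a median log2 fold change of -1.23 and ran from -4.17 to -0.56. Of them, 138 lay below -1, 45 below -2 and 11 below -3; below -1 lay 0.397% of all guides. No member below -1 missed the threshold. The lowest NT_ guide was at -0.57, and 256 members lay below it, as did 101 guides numbered up to 30000.

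The guide UID_037532 showed the deepest loss. Its scaled signal was 198, 203 and 232 in day 0 replicates 1, 2 and 3, and 7.34, 13.7 and 15.7 in day 14 replicates 1, 2 and 3, which rest on 5, 12 and 24 reads. The groups did not overlap, and 5.54% of the day 0 level was left, a change of -4.17 ± 0.34 on the log2 scale (SE, n = 3 per day, adjusted p = 2.32e-10 by limma). With a pseudocount of 10 this change was -3.33, so the size of the deepest losses depends on how a few reads are treated. The guide p-values rest mainly on a spread that limma drew from all guides, with 32.4 prior against 4 residual degrees of freedom.

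UID_034724 went from 146, 129 and 161 at day 0 to 8.61, 5.24 and 13.8 at day 14, a log2 fold change of -4.08 ± 0.43. UID_033445 went from 173, 117 and 116 to 9.88, 5.24 and 13.8, a change of -3.90 ± 0.43. In both guides day 14 replicate 2 held the lowest value, with 4 reads each. UID_037529 fell from 136, 153 and 149 to 12.4, 13.7 and 6.50, by -3.82 ± 0.39 on the log2 scale. UID_037536 had the most uneven start, with 136, 74.8 and 182 at day 0, and ended at 11.2, 7.37 and 10.8. These guides were left with between 5.91% and 7.82% of their day 0 level.

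The other 5 of the 10 lowest guides held between 10 and 47 reads in the day 14 libraries. UID_035892 fell from 261, 195 and 206 to 21.3, 18.0 and 20.6, a change of -3.46 ± 0.28 with close agreement of its 3 day 14 values. UID_037531 fell from 172, 186 and 202 to 20.0, 11.6 and 24.3. UID_033441 started higher, at 297, 263 and 309.7, and ended at 31.5, 23.3 and 29.8, a change of -3.37 ± 0.23 (SE, n = 3 per day, adjusted p = 1.78e-12 by limma), which had the smallest standard error among the 10 lowest guides. UID_038588 went from 158, 108 and 179 to 17.5, 12.7 and 18.7. UID_034434 went from 186, 232 and 228 to 39.1, 22.2 and 18.7, with its highest day 14 value in replicate 1. In each of the 10 guides every day 14 library lay below every day 0 library, which their choice as the lowest called guides largely fixes. The same held for 6.32% of all guides. With a pseudocount of 10 their folds were between 5.94 and 10.1 times lower instead of between 8.44 and 18.1 times.

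The guide numbers of the library fall into consecutive sets of 8, and the losses of the members followed these sets. Within a set, the log2 fold changes of neighbouring numbers correlated at 0.234 over 7957 pairs, and those of numbers 7 apart, the first and last guide of a set, at 0.237 over 1137 pairs. Across the border between sets, direct neighbours correlated at -0.01 over 1136 pairs. The likeness thus did not fade with distance inside a set and ended at its border. Guides numbered up to 30000 showed the same borders with lower values, 0.0955 between direct neighbours of a set and 0.0365 across a border. The division at 30000 was chosen on this change, so nothing is read from the higher values of the members. These correlations are across guides of the same 6 libraries, which are not independent replicates, and neighbouring sets as wholes correlated at 0.01 over 1139 pairs.

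The members form 1140 sets, of which 1128 are complete and the smallest holds 6 guides. On the mean log2 signal of a set, 115 sets (10.1%) were lower at day 14, where 3.66% of all 4890 sets were called lower. With the borders moved by 2, 4 or 6 numbers, 116, 107 and 115 sets past 30000 were called lower, so this count hardly depended on where the borders lay. The median change of these sets was -0.34 and the range -2.40 to -0.18. Every day 14 library lay below every day 0 library in 213 member sets (18.7%), and in 9.78% of all sets. The guides of a lower set differed widely among themselves. The median range between the highest and the lowest guide was 1.56 on the log2 scale in the lower sets and 0.45 in the other member sets. A single deeply lost guide can bring a set mean past the threshold, so the call itself largely fixes this wider range. When a set was summarised by its median guide rather than its mean, 45 sets were called lower, and 6 of the 115 had a mean change of -1 or beyond.

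The set from 37529 to 37536 was lost most. Its mean signal was 186, 193 and 217 at day 0 and 36.9, 35.9 and 39.6 at day 14, a change of -2.40 ± 0.10 on the log2 scale (SE, n = 3 per day, adjusted p = 1.33e-63 by limma). The p-value is this small because limma drew the spread of a set mainly from all sets, with 247 prior against 4 residual degrees of freedom. Of its 8 guides 6 were called lower, with UID_037530 at -1.56, UID_037535 at -2.66 and the 4 guides named above between -4.17 and -3.39. The other two, UID_037533 and UID_037534, were at 0.10 and -0.06. The former read 255, 256 and 279 at day 0 and 277, 293 and 277 at day 14, whereas 5.54% of UID_037532, the number before it, was left.

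The set from 38585 to 38592 had 7 guides called lower, the most of any member set. Its geometric mean signal went from 223, 199 and 215 to 82.5, 76.3 and 75.2, a log2 fold change of -1.44 ± 0.08. The other 6 called guides lay between -1.96 and -0.81 beside UID_038588 at -3.18, while UID_038591 was at 0.00. Losses here were spread over nearly all guides, unlike in the set from 33441 to 33448. That set had nearly the same mean change, -1.31 ± 0.08, but it came from 3 guides. UID_033441, UID_033442 and UID_033445 were at -3.37, -3.07 and -3.90, and the other 5 guides lay between -0.36 and 0.14. Its median guide was at -0.19.

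The remaining sets among the 8 lowest fell between these patterns. The set from 35889 to 35896 changed by -1.05 ± 0.08, with 3 guides called lower and UID_035892 as the lowest. The set from 34721 to 34728, which has 7 guides in the table, changed by -1.05 ± 0.08 with 2 guides called lower, UID_034724 at -4.08 and UID_034725 at -2.02; the rest lay between -0.38 and -0.10. The set from 34433 to 34440 changed by -1.04 ± 0.07, with UID_034433, UID_034434 and UID_034437 called lower, the last 2 at -3.08 and -2.73. The set from 38697 to 38704 also had every guide below 0, from -2.13 to -0.19, and its mean change was -0.95 ± 0.07. The set from 33329 to 33336 changed by -0.92 ± 0.07, with UID_033331 at -2.84, UID_033333 at -2.95 and UID_033334 at -0.67 called lower.

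Sets with several lost guides were in the minority. The 219 called guides lay in 132 sets: 77 sets had 1 called guide, 34 had 2, 16 had 3, 2 had 4, and 1 set each had 5, 6 and 7. In 0 sets were all 8 called. The 55 sets with at least 2 called guides held 142 of the 219. Of the 115 lower sets, 12 had no guide called on its own, 48 had 1 and 55 had 2 or more, and 29 sets with a called guide were not called as a set. In 21 of the lower sets every guide was below 0, and the median lower set had 6 guides below 0, against 4 in the other member sets. The call on the set mean largely fixes this difference.

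In 66 sets exactly 1 guide lay below -1. The 461 other guides of these sets had a median of -0.11, and 70.9% of them were below 0, against 55.8% of all members. Of the 32 sets with a guide below -2, 13 had no second guide below -1, and the median second lowest guide of the 32 was at -1.29. All 32 were called lower as sets, which a guide below -2 largely fixes through its weight in the set mean. In 7 sets a guide below -2 stood beside 7 others that all lay above -0.5, a pattern singled out after the values were seen. The most isolated by size was UID_037691, which went from 242, 209.8 and 217 to 28.9, 15.9 and 49.3, a change of -2.98, while the other 7 guides of its set lay between -0.47 and 0.24. UID_038337 went from 206, 154 and 162 to 25.1, 22.2 and 26.1, a change of -2.82, and its neighbours lay between -0.43 and 0.22. UID_033196, at -2.19, had the flattest neighbours on the low side, none of them below -0.14.

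Loss was unevenly spread over the places within a set. Places 1 to 4 held 143 of the called lower guides (3.14% of 4553) and places 5 to 8 held 76 (1.67% of 4554). By place from 1 to 8 the called guides numbered 32, 38, 37, 36, 24, 13, 20 and 19. Guides below -2 numbered 36 in the first 4 places and 9 in the last 4, and place 6 had none, with -1.96 as its lowest value. Mean log2 fold change ran from -0.08 at place 4 to -0.03 at place 6.

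Against the shared day 0 mean, each of places 1 to 4 had a lower mean than each of places 5 to 8 in all 3 day 14 libraries. The lowest mean stood at place 2 in replicates 1 and 2 (-0.07 and -0.10) and at place 4 in replicate 3 (-0.08). The mean nearest 0 stood at place 6 in each, at -0.03, -0.04 and -0.04. Medians by place ran from -0.0320 to -0.0241 at places 1 to 4 and from -0.0225 to -0.0143 at places 5 to 8. The middle of the values thus differed slightly, besides the tail of lost guides. Median day 0 signal by place was between 216 and 223, with no place much more or less abundant at the start. In the 115 lower sets the lowest guide stood at place 1 in 17 sets, at place 2 in 23, at place 3 in 17 and at place 4 in 22, and at places 5 to 8 in 11, 6, 9 and 10. In the other 1025 member sets it stood at each place in between 120 and 139 sets. Among guides numbered up to 30000, 40 were called lower in places 1 to 4 (0.267%) and 26 in places 5 to 8 (0.174%). By place from 1 to 8 these numbered 15, 9, 4, 12, 9, 7, 5 and 5, with the fewest at place 3. Their lowest mean log2 fold change stood at place 7, at -0.0147. The table does not say what orders guides within a set.

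Along the numbers the called losses of the members began past the border rather than at it. Losses were not confined to the members, since 66 guides numbered up to 30000 were also called lower. The first called lower member was UID_030463, at 162, 157 and 166 on day 0 and 50.5, 48.8 and 53.6 on day 14, and the last called lower guide before the border was number 29269. The 8 guides from 30001 to 30008 lay between -0.13 and 0.33 with a median of 0.00. The 8 guides from 29993 to 30000 lay between -0.35 and 0.02 with a median of -0.12, and none of the 16 was called. The border therefore fell in a stretch without called losses.

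In blocks of 1000 numbers from 30001 to 39000, the called lower guides numbered 14, 9, 18, 40, 34, 18, 17, 25 and 38. The blocks starting at 33001, 34001 and 38001 thus held the most, with 4.00%, 3.40% and 3.80% of their guides. The last 120 numbers, from 39001 to 39120, held 6. In the 30 such blocks up to 30000 the count ran from 0 to 7 with a median of 2. Called lower sets in these blocks numbered 7, 6, 10, 22, 18, 11, 15, 12 and 12, and 2 of the last 15 sets. The 115 sets formed 106 runs, 97 of them of a single set, and the longest run was 2 sets. With 10.1% of the member sets called, sets placed at random would also stand mostly alone, so no spacing is read from this. The longest stretch without a lower set was 44 sets, from 30985 to 31336.

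The called lower guides differed between the 3 day 14 libraries in how far they fell. Median log2 change of the 219 guides against their day 0 mean was -1.27, -1.30 and -1.12 in replicates 1, 2 and 3. Replicate 2 was the lowest of the 3 for 104 guides, replicate 1 for 70 and replicate 3, the most deeply sequenced, for 45. All 219 had every day 14 library below every day 0 library, which their choice by the call largely fixes. That held for 859 members in all (9.43%), against 6.32% of all guides in the table, while 381 members (4.18%) had every day 14 library above every day 0 library, against 4.73% of all guides.

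The median range over the day 14 libraries was 0.50 on the log2 scale, and 31 of the 219 exceeded 1. The widest was UID_038834, at 186, 196 and 178 on day 0 and 22.6, 75.3 and 81.8 on day 14. Its loss was thus deepest in replicate 1, and its log2 fold change was -1.85 ± 0.29. Among the called guides the median SD over replicates was 0.13 at day 0 and 0.26 at day 14, whereas among members not called lower it was 0.13 and 0.18. The threshold itself depended on this spread. The weakest called guide, UID_038322, went from 349, 334 and 297 to 207, 244 and 217, a change of -0.56 ± 0.13 with an adjusted p of 0.029 by limma. The lowest guide not called, UID_033772, was at -0.81 ± 0.24, since its day 14 values were 175, 57.3 and 159.

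At day 0 the members were as abundant as the rest of the UID_ guides. Their median scaled signal was 223, 221 and 215 in replicates 1, 2 and 3, and the guides numbered up to 30000 had the same medians to 3 digits, against 197, 196 and 196 for NT_ guides. Median spread over the day 0 replicates was 0.134 for both number ranges and 0.141 for NT_ guides. The called lower members began at 221, 216 and 212. At day 14 they were at 92.4, 85.9 and 94.6, and the members not called lower were at 217, 215 and 215.

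Few members rose. By limma 7 guides were higher at day 14 (0.0769%), against 0.0624% of all guides, and 5 sets (0.439%), against 0.675% of all sets. The guide UID_039042 rose most, from 227, 196 and 214 to 430.2, 346 and 368, which is 1.79 times the day 0 level (log2 fold change 0.84 ± 0.13, SE, n = 3 per day, adjusted p = 7.35e-05 by limma). UID_039043 stands beside it and rose from 272, 222 and 220.1 to 376, 336 and 372, or 1.52 times. UID_039046 of the same set rose 1.44 times. The other called guides were UID_035813, from 182, 228 and 239 to 376, 395 and 346, UID_035816 at 0.66, UID_038443 at 0.51 and UID_039066 at 0.56. Of the 7, 4 lie in the last 120 numbers, and none rose as much as 2-fold.

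The higher sets were smaller changes still. The set from 39041 to 39048 went from 205, 194 and 199.7 to 255, 248 and 265, a change of 0.36 ± 0.06 on the log2 scale (SE, n = 3 per day, adjusted p = 3.91e-08 by limma), with 7 of its guides above 0. The set from 36809 to 36816 went from 187, 210.0 and 189 to 249, 218 and 235, at 0.26 ± 0.06, with no guide called on its own. The set from 35809 to 35816, which holds UID_035813 and UID_035816, was at 0.23 ± 0.06, and the set from 36137 to 36144 at 0.20 ± 0.06. The rising calls depended on single libraries: 15 guides were called higher without day 14 replicate 2, and 3 without day 0 replicate 2 or without day 0 replicate 3. UID_039066, UID_039043, UID_035816 and the last 2 sets named here each lost their call with at least 1 library left out.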

How the data were processed

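Guide cassettes were amplified from genomic DNA of 6 HfCas13d HAP1 libraries and sequenced. The authors' deposited values are signal, normalised in a way not given in the sources used here; cutadapt 1.13, Bowtie 1.1.2 and GRCh38 are named per the submitters' processing notes. After 1 was subtracted, 100% of values in each library were whole steps of equal size (tolerance 0.01 of a step), and the number of steps was taken as reads. The 48 rows without an ID, and without values, were left out.

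Log2 signal was centred per library on the mean of the NT_ guides' deviations after trimming 30% from each side. Day 14 was compared with day 0 by limma 3.58.1 under R 4.3.3, with a variance trend, over all 40070 guides or 4890 set means (sets by number, at least 6 guides), with Benjamini-Hochberg adjustment over all of them and a threshold of 0.05. A minimum mean signal of 10 kept all 9107 members. Errors are standard errors of the fit. The fit was also run on simulated data with added changes and the same spread for every guide and day. The spread of the real libraries differed between days, so that run bears on the code and not on the calls.

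Named were the 10 lowest and 5 highest called guides, the 8 lowest and 4 highest called sets, and the 8 guides on each side of the border. Other guides were chosen after their values were seen. Members, sets and tests were chosen with earlier results of these data known.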

Additional observations from a re-analysis of the deposited data

How the results depend on the processing

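Other scalings (deposited values, total signal, trimmed mean over all guides), a pseudocount of 10, a minimum mean signal of 50 or none, and a robust variance prior each gave counts of lower and higher guides and sets within 1.5 times of those reported. The median log2 fold change of the members, -0.0222 as reported, was -0.0198 on the deposited values, -0.0141 with total signal and -0.00905 with the trimmed mean over all guides, and the cause was not tested. When a change of 1 or more on the log2 scale was also required, 138 guides and 6 sets were lower and 0 guides and 0 sets higher by limma, which follows from the highest member at 0.84. At an unadjusted p under 0.05 by limma, 174 members (1.91%) were higher and 634 (6.96%) lower. The share of all guides at this threshold was not counted, so nothing is read from these 2 counts. With the median per set, 45 sets were lower and 1 was higher. When set borders were shifted by 2, 4 or 6 places, 116, 107 and 115 sets were called lower, and the higher ones numbered 3, 3 and 3. With a library left out, lower guides numbered between 155 and 224, higher guides between 3 and 15, lower sets between 91 and 115 and higher sets between 3 and 8 (8 without day 14 replicate 3, 3 without day 0 replicate 3), and the median lay between -0.0383 and -0.0174, the former without day 0 replicate 3. Voom on recovered reads, added after the data were seen, called 215 guides lower and 5 higher; the planned count models were not run, since the deposited values are normalised signal.

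Same-numbered libraries deviated together at r = 0.0762, 0.113 and 0.107 across guides, and each correlated best with its own number, a hint from the data and not the design. With the replicate block 238 guides were lower and 12 higher, and 118 sets lower and 5 higher. Of 351 recomputed values of named guides and sets, 340 kept direction and threshold, 11 kept direction only, all 11 with a library left out and all among rising guides and sets, and 0 reversed. In 25 members a day 14 library held under 20 reads, and for these the depth limits the size of the loss.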
